A study of Homo sapiens with 9 samples.

Results

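The genes described here are those of glycolysis and of the response to low oxygen, taken from a list of 35 gene symbols: 16 glycolytic enzymes, 4 glucose and lactate transporters, 3 regulatory kinases and 12 HIF subunits, prolyl hydroxylases and other hypoxia genes. Of these, 31 had a transcript cluster on the array, 1 each, among 17687 named genes, and SLC16A1, SLC16A3, PFKFB4 and CA9 are not analysed here. RNA of ACC-MESO-1 cells, which are an established human mesothelioma line (a tumour that arises in the lining of body cavities), was hybridized to 9 Clariom S arrays. The cells carried shLSD1 #1 (replicates 4 to 6), shLSD1 #2 (replicates 7 to 9) or a control shRNA (replicates 1 to 3), 3 arrays each. A short hairpin RNA lowers its target by RNA interference, and LSD1 is a histone demethylase found in repressor complexes. Every group shared the line, its serum-containing medium with penicillin and streptomycin, and the infection, and the labels name no lowered oxygen. The comparison therefore asks how these genes stood with the LSD1 hairpins without such a stimulus. Because LSD1 itself is not analysed here, how far the hairpins lowered it is unknown. It is not stated in the labels whether the arrays of a group came from separate cultures, and p-values measure the spread between these arrays, which may be technical.

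Glycolysis splits glucose into pyruvate, which lactate dehydrogenase can reduce to lactate, and it yields ATP without oxygen. In low oxygen the prolyl hydroxylases stop marking the HIF alpha subunits for destruction, and HIF then raises many genes, among them glucose transporters, most glycolytic enzymes, and genes for blood vessel growth and for removal of mitochondria. Many tumour lines run glycolysis at a high rate even with oxygen present.

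Values are log2 signals, summarised by the authors with RMA, so a change of 1 is a 2-fold difference within 1 gene. Background was read from 612 negative control probe sets, whose 95th percentile lay between 6.93 and 7.54 per array, and a gene over that percentile is called above the negative controls. Between 42.0% and 46.2% of the 21448 gene clusters did so on each array, and array medians lay between 6.39 and 6.43. In such bulk RNA, fewer cells that express a gene and less of its RNA per cell cannot be told apart. The arrays stood apart in 4 hybridization spike-ins, control RNAs added to each sample: their mean was low (10.8 to 10.9) for every shLSD1 #1 array and for replicate 8 of shLSD1 #2, and high (11.2 to 11.4) for replicates 7 and 9 of shLSD1 #2 and every control array. For shLSD1 #1 this split and the hairpin cannot be told apart, and this holds for every shLSD1 #1 value below. A block on spike-in class would correct shLSD1 #1 by the difference of 1 array, shLSD1 #2 replicate 8, from replicates 7 and 9, so it is no separate check of that hairpin. For shLSD1 #2 a fit that blocks on spike-in class rests on replicates 7 and 9 against the controls, and what it does to the calls is given with the counts. Among 13 mesothelial markers, MSLN, KRT8 and KRT18 were above the negative controls on 9 arrays, WT1 on 6, UPK3B on 5, KRT19 and PDPN on 1, and CALB2, UPK1B, KRT5, LRRN4, BNC1 and HP on 0. With each hairpin WT1, UPK3B and UPK1B were called higher and MSLN lower, and under the block the 4 calls were lost with shLSD1 #1 (adjusted p 0.167 to 0.573) and that of WT1 with shLSD1 #2 (0.107). Of the markers of other cells, CD68 was above on 9 arrays and lower with both hairpins (log2 -1.11 and -1.35), and PTPRC, CD3E, CD14, LYZ, the 5 endothelial markers and the 5 lung epithelial markers were above on 0. CDH1, 1 of the lung epithelial markers, was called higher with shLSD1 #2 (log2 1.00, adjusted p = 0.0244) at a signal below the negative controls.

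The members moved in both directions with the LSD1 hairpins. Lower transcripts came mainly from glucose uptake and early glycolysis (SLC2A1, SLC2A3, HK1, GPI) with PGK1 and the vessel growth factor VEGFA, and higher ones from oxygen sensing and other hypoxia targets (EPAS1, EGLN1, ADM, ANKRD37) with PDK1. HK2 was called higher too, but at a signal below the negative controls on all 9 arrays. With shLSD1 #1, 13 of 31 members passed the test (limma, Benjamini-Hochberg adjusted p under 0.05 over 21448 clusters), 6 higher and 7 lower. This is 41.9% of the members, beside 15.8% of clusters called (7.85% higher and 7.94% lower). With shLSD1 #2, 15 members passed, 7 higher and 8 lower, which is 48.4% of the members beside 13.2% of clusters (6.56% higher and 6.63% lower). Among clusters whose mean exceeded the negative controls the background was higher, at 28.5% for shLSD1 #1 and 24.1% for shLSD1 #2, and 12 (48%) and 13 (52%) of the 25 members above them on every array were called. Both hairpins called 12 members, 6 higher and 6 lower, 1 hairpin called 4 and neither called 15. Both comparisons use the same 3 control arrays, so the hairpins are not independent of each other there. Under the spike-in block 8 of the 15 shLSD1 #2 calls remained, and the 7 lost (SLC2A1, ALDOA, PDK1, EPAS1, EGLN1, BNIP3L and NDRG1) had adjusted p 0.0521 to 0.116. Their changes kept their sign and much of their size, such as -0.43 against -0.48 for SLC2A1 and 0.45 against 0.41 for EPAS1. For shLSD1 #1, where it is no separate check, 2 of the 13 calls remained (SLC2A3 and ADM) and the 11 lost had adjusted p 0.0761 to 0.655. Their changes kept their sign, some smaller (-0.25 against -0.40 for SLC2A1) and some larger (-0.79 against -0.48 for VEGFA). Leaving out 1 array lowered the shLSD1 #2 count by more than 1.5 times for control replicate 2 (9 members), shLSD1 #2 replicate 7 (8) and shLSD1 #2 replicate 8 (8), and left 10 to 13 shLSD1 #1 calls.

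**Figure D1:**
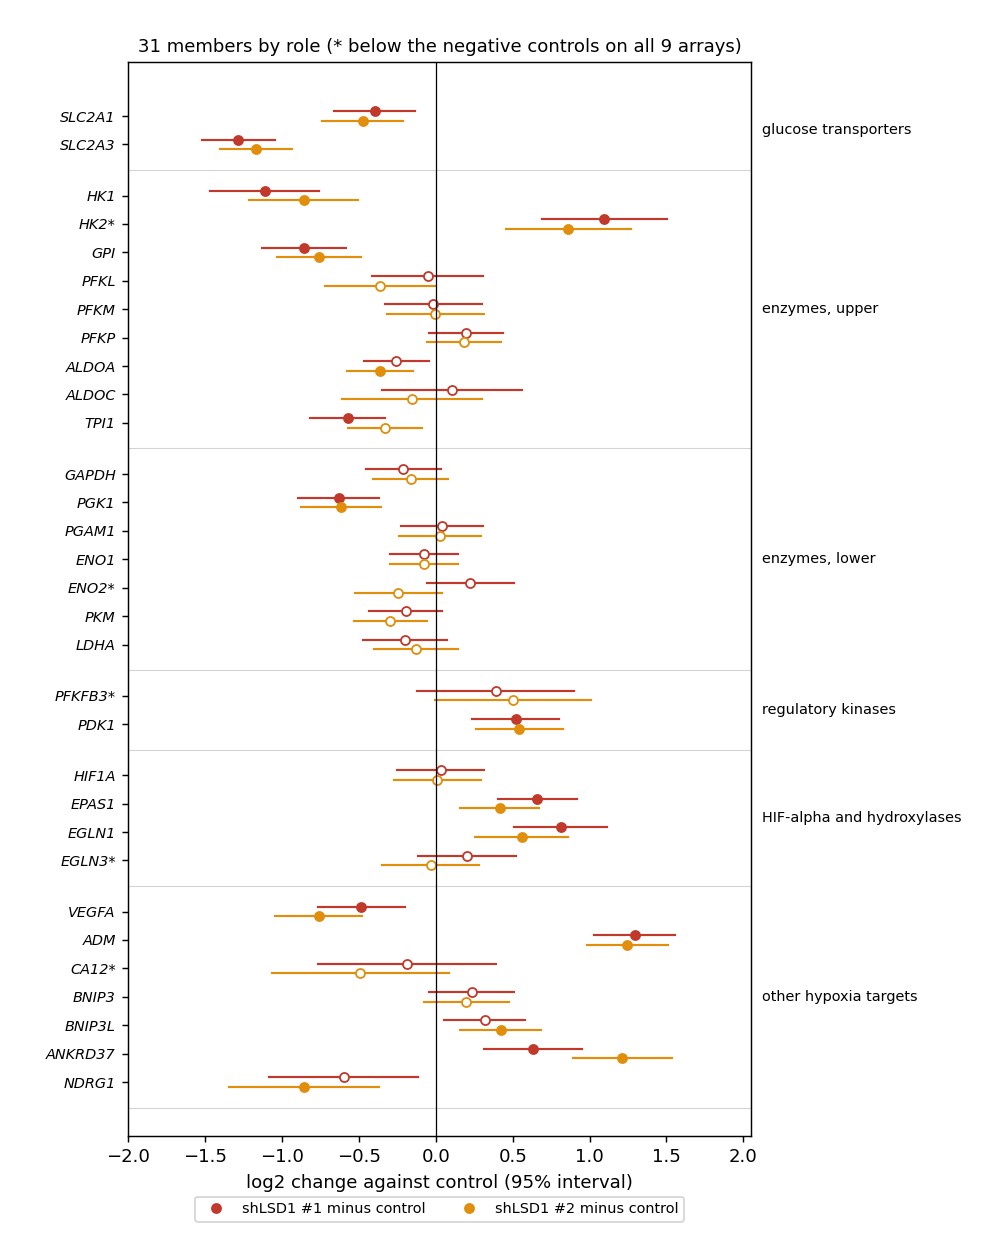
Fitted log2 change against control shRNA for the 31 members by role, shLSD1 #1 in red and shLSD1 #2 in orange, with 95% intervals. Filled points passed the test (limma, adjusted p under 0.05), open points did not, and the changes lie between -1.28 for SLC2A3 and 1.29 for ADM, both with shLSD1 #1.

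Upstream sequence is shown for 4 members, from genes that rose (ADM, ANKRD37), fell (PGK1) and did not pass the test (LDHA). HIF binds DNA at a short core, searched here as ACGTG or GCGTG on both strands in the 250 bases before the annotated start (RefSeq, GRCh38.p14). At least 1 match was present in 15172 of 35116 promoters (43.2%) and in 18 of the 27 members with an entry (66.7%). The 35116 promoters go beyond the 17687 named genes of the array and were not limited to expressed genes, so these shares come from unlike sets. A match was found in 5 of 6 members higher with both hairpins, HK2 (below the negative controls) among them, and in 2 of 4 lower with both. A further 1 of 2 called with 1 hairpin and 10 of 15 not called held it. SLC2A3, VEGFA, BNIP3L and NDRG1 had no entry. The windows are chr11:10304823-10305072 for ADM, chr4:185396591-185396840 for ANKRD37, chrX:78103998-78104247 for PGK1 and chr11:18394313-18394562 for LDHA, all on the plus strand and 5′ to 3′. Capitals mark a match on either strand. CACGTG reads the same on both strands and counts as 2 overlapping matches.
ADM: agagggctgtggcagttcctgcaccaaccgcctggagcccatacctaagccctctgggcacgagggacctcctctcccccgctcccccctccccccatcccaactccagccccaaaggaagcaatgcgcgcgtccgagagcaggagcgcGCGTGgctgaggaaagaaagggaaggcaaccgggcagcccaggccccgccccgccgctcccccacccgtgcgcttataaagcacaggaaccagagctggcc
ANKRD37: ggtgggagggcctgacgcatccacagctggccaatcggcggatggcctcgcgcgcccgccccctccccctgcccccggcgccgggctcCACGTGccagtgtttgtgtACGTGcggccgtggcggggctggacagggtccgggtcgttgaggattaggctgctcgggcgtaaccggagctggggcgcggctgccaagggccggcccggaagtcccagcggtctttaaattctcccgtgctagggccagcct
PGK1: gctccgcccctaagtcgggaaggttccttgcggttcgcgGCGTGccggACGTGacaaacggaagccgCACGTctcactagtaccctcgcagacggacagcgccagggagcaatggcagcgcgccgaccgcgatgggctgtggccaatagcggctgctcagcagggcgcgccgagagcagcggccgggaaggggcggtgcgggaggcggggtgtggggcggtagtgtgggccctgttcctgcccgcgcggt
LDHA: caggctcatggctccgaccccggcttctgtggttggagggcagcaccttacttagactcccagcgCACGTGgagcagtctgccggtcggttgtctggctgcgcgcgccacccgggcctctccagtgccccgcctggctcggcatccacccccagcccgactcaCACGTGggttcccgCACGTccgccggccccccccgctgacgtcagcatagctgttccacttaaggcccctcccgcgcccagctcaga
The single ADM match began 101 bases before the start. ANKRD37 had 3 matches, beginning 162, 161 and 143 bases before it, and PGK1 had 3, at 211, 202 and 183 bases. LDHA had 5, at 185, 184, 87, 86 and 73 bases. A match is a run of letters and was not tested as a binding site.

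Both glucose transporters with a cluster fell with both hairpins. SLC2A3 (GLUT3) carries glucose into the cell with high affinity. Its log2 signals were 13.03, 12.97 and 13.14 with shLSD1 #1, 13.10, 13.15 and 13.23 with shLSD1 #2, and 14.28, 14.39 and 14.32 with control shRNA. Every hairpin array lay more than 1 log2 unit below every control array. SLC2A3 was 2.44-fold lower with shLSD1 #1 (log2 -1.28, SE 0.10, limma adjusted p = 5.75e-05) and 2.25-fold lower with shLSD1 #2 (log2 -1.17, SE 0.10, adjusted p = 9.76e-05). The shLSD1 #2 call held under the spike-in block (adjusted p = 0.000831). SLC2A1 (GLUT1) is the widely expressed basal glucose carrier. It gave 14.16, 14.36 and 14.22 with shLSD1 #1, 14.11, 14.07 and 14.33 with shLSD1 #2, and 14.63, 14.71 and 14.60 with control shRNA. The groups did not overlap, but the gap was narrow. SLC2A1 was 1.32-fold lower with shLSD1 #1 (log2 -0.40, SE 0.12, adjusted p = 0.0462) and 1.39-fold lower with shLSD1 #2 (log2 -0.48, SE 0.12, adjusted p = 0.0250). The shLSD1 #1 call was lost without any 1 of replicates 1, 2, 3, 4, 6, 7 and 8 (adjusted p 0.0552 to 0.136), and the shLSD1 #2 call without replicate 1, 2, 3, 7 or 8 (0.0573 to 0.0878). Under the spike-in block the shLSD1 #2 call was lost (adjusted p = 0.0855).

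Of the 9 enzymes that take glucose to the triose phosphates, 1 (HK2) was higher and 3 were lower with each hairpin. Over all clusters 7.85% were higher and 7.94% lower with shLSD1 #1, and 6.56% and 6.63% with shLSD1 #2. The 9 enzymes were mostly well above background, and 44.4% of them were called with each hairpin. This share counts HK2, whose signal was below the negative controls, so it is not fully like the next one. Among clusters whose mean exceeded the negative controls 28.5% and 24.1% were called in either direction. The hexokinases, which trap glucose in the cell by phosphorylating it, differed: HK1 fell, and HK2 was called higher at a signal no greater than background. HK1 had log2 signals of 10.57, 10.97 and 10.63 with shLSD1 #1, 11.01, 10.77 and 11.15 with shLSD1 #2, and 11.64, 11.99 and 11.88 with control shRNA, without overlap. HK1 fell to 10.72 ± 0.213 with shLSD1 #1 and 10.98 ± 0.192 with shLSD1 #2, against 11.84 ± 0.176 with control shRNA (SD, n = 3 each). That is 2.16-fold lower with shLSD1 #1 (log2 -1.11, SE 0.16, limma adjusted p = 0.00139) and 1.81-fold lower with shLSD1 #2 (log2 -0.86, SE 0.16, adjusted p = 0.00610). HK2, the hexokinase most often raised in tumours, was below the negative controls on all 9 arrays. It gave 6.39, 6.30 and 6.47 with shLSD1 #1, 6.27, 5.95 and 6.24 with shLSD1 #2, and 5.65, 4.92 and 5.31 with control shRNA. The hairpin arrays were all higher and the test was passed (log2 1.10, SE 0.18, adjusted p = 0.00320, and log2 0.86, SE 0.18, adjusted p = 0.0125), yet with values raised to the negative controls the change was 0, and no fold is given.

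GPI, which turns glucose 6-phosphate into fructose 6-phosphate, fell with both hairpins. Its log2 signals were 13.24, 13.40 and 13.16 with shLSD1 #1, 13.26, 13.28 and 13.56 with shLSD1 #2, and 14.13, 14.13 and 14.12 with control shRNA. The 3 control arrays were nearly equal and lay above all 6 hairpin arrays. GPI was 1.81-fold lower with shLSD1 #1 (log2 -0.86, SE 0.12, limma adjusted p = 0.00144) and 1.69-fold lower with shLSD1 #2 (log2 -0.76, SE 0.12, adjusted p = 0.00310). TPI1, which interconverts the triose phosphates, passed with shLSD1 #1 alone. It averaged 13.12 ± 0.0473 with shLSD1 #1, 13.36 ± 0.0488 with shLSD1 #2 and 13.69 ± 0.124 with control shRNA (SD, n = 3 each), for log2 changes of -0.57 (adjusted p = 0.00627) and -0.33 (adjusted p = 0.0789). ALDOA, the main aldolase of most tissues, passed with shLSD1 #2 alone. It averaged 15.93 ± 0.0148 with shLSD1 #1, 15.82 ± 0.0260 with shLSD1 #2 and 16.18 ± 0.0169 with control shRNA, for log2 changes of -0.26 (adjusted p = 0.104) and -0.36 (adjusted p = 0.0339). Neither gene passed the test of the difference between the hairpins. Without the third of clusters of lowest mean, TPI1 also passed with shLSD1 #2 (limma adjusted p = 0.0346) and ALDOA with shLSD1 #1 (0.0437). With values raised to the negative controls both did so as well (0.0281 and 0.000436). Under both settings the log2 changes of TPI1 and ALDOA stayed as they were. Only the p-values moved, through the other clusters in the fit, so these passes are no further support. The ALDOA call with shLSD1 #2 was lost without any 1 of replicates 1, 2, 3, 4, 7, 8 and 9 (adjusted p 0.0503 to 0.0955), and after a second quantile normalization (0.0686).

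The other upper enzymes did not pass. The phosphofructokinase subunits PFKL, PFKM and PFKP, which set the committed step, changed by -0.05, -0.02 and 0.20 with shLSD1 #1 and by -0.36, -0.00 and 0.18 with shLSD1 #2 on the log2 scale. ALDOC, an aldolase best known from brain, changed by 0.11 with shLSD1 #1 and by -0.16 with shLSD1 #2. For PFKL with shLSD1 #1, and for PFKM and ALDOC with both hairpins, the sign turned under at least 1 other setting.

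Among the 7 enzymes from GAPDH to lactate, PGK1 was the only one called with either hairpin, a share of 14.3% beside 15.8% and 13.2% over all clusters. Of the 7, 6 were above the negative controls on all 9 arrays, and 28.5% and 24.1% of clusters whose mean exceeded these controls were called. PGK1 makes ATP at the substrate level and is a classic hypoxia-inducible gene. It had log2 signals of 13.41, 13.69 and 13.55 with shLSD1 #1, 13.69, 13.45 and 13.55 with shLSD1 #2, and 14.22, 14.19 and 14.15 with control shRNA. All 6 hairpin arrays were below the 3 control arrays. PGK1 was 1.55-fold lower with shLSD1 #1 (log2 -0.63, SE 0.12, limma adjusted p = 0.00552) and 1.53-fold lower with shLSD1 #2 (log2 -0.62, SE 0.12, adjusted p = 0.00715). GAPDH, often used as a loading reference, did not pass. It gave 17.24, 17.39 and 17.25 with shLSD1 #1, 17.35, 17.25 and 17.43 with shLSD1 #2, and 17.60, 17.50 and 17.43 with control shRNA, and the shLSD1 #1 arrays lay below the controls while the shLSD1 #2 arrays met them at 17.43. Its log2 changes were -0.21 (95% interval -0.46 to 0.03, adjusted p = 0.239) and -0.16 (-0.41 to 0.08, adjusted p = 0.404). LDHA, the subunit of lactate dehydrogenase that favours lactate, had 16.33, 16.69 and 16.62 with shLSD1 #1, 16.65, 16.57 and 16.62 with shLSD1 #2, and 16.69, 16.74 and 16.80 with control shRNA. The lowest array was shLSD1 #1 replicate 4, and the changes of -0.20 (-0.47 to 0.07, adjusted p = 0.323) and -0.13 (-0.40 to 0.14, adjusted p = 0.570) did not pass. PFKP, GAPDH, ENO1 and LDHA exceeded 16 on all 9 arrays, and ALDOA on the 3 control arrays only. This is more than a 16-bit scanner can record, so their values are relative, and saturation was not tested.

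The remaining lower enzymes did not pass. PKM, the pyruvate kinase of most tissues and tumours, averaged 15.64 ± 0.0760 with shLSD1 #1, 15.54 ± 0.0969 with shLSD1 #2 and 15.84 ± 0.00605 with control shRNA (SD, n = 3 each), and its changes of -0.20 (limma adjusted p = 0.255) and -0.30 (adjusted p = 0.104) missed the threshold. With shLSD1 #2 PKM passed without the third of clusters of lowest mean (limma adjusted p = 0.0466) and with values raised to the negative controls (0.0262). Its log2 change stayed as it was under both, so these passes came through the other clusters in the fit. ENO1, the common enolase, changed by -0.08 with both hairpins, and the mutase PGAM1 by 0.04 with shLSD1 #1 and 0.03 with shLSD1 #2, with a sign that turned when some single arrays were left out. ENO2, the neuronal enolase, was below the negative controls on all 9 arrays. A trended robust prior, which lets the expected spread depend on signal, called PFKP (higher), GAPDH and PKM (lower) with both hairpins, ALDOA (lower) and BNIP3L (higher) also with shLSD1 #1, and TPI1 (lower) also with shLSD1 #2, which makes 18 members with shLSD1 #1 and 19 with shLSD1 #2.

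**Figure D2:**
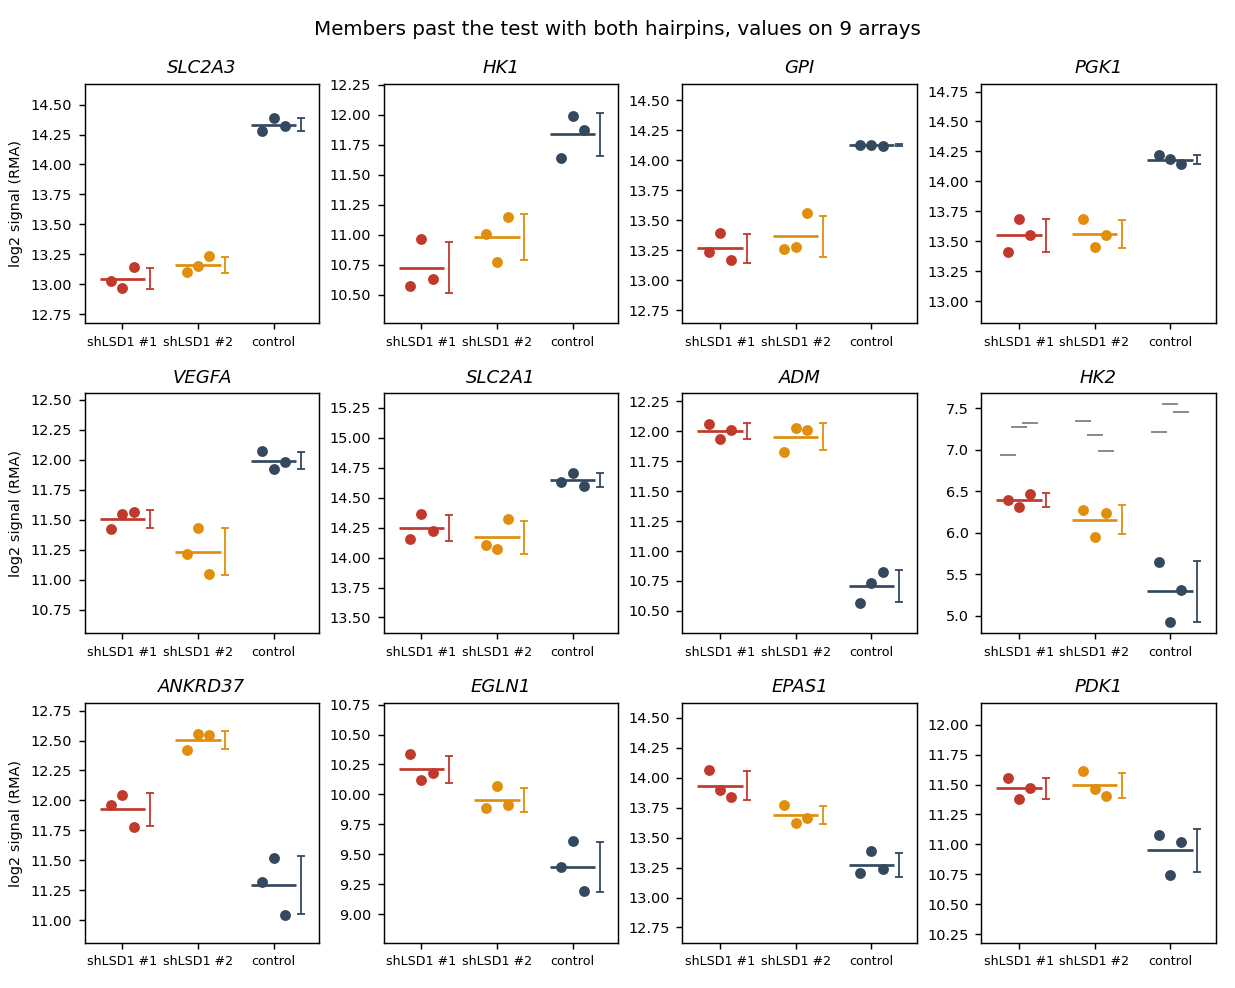
Log2 signal on the 9 arrays for the 12 members past the test with both hairpins, shLSD1 #1, shLSD1 #2 and control from left to right; lines are means, bars SD (n = 3) and each axis has its own range. In the HK2 panel, grey dashes mark each array's 95th percentile of negative controls, and every HK2 value lies below its dash, from 4.92 to 6.47.

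PDK1, the kinase that inactivates pyruvate dehydrogenase and so holds pyruvate back from oxidation in the mitochondria, rose with both hairpins. Its log2 signals were 11.55, 11.38 and 11.47 with shLSD1 #1, 11.61, 11.46 and 11.41 with shLSD1 #2, and 11.08, 10.75 and 11.02 with control shRNA. The 6 hairpin arrays were above the 3 controls, of which replicate 2 was the lowest. PDK1 was 1.43-fold higher with shLSD1 #1 (log2 0.52, SE 0.13, limma adjusted p = 0.0216) and 1.46-fold higher with shLSD1 #2 (log2 0.54, SE 0.13, adjusted p = 0.0202). The shLSD1 #1 call was lost without replicate 2, 4 or 6 (adjusted p 0.0585 to 0.0770) and the shLSD1 #2 call without replicate 2, 7 or 8 (0.0521 to 0.0758). PFKFB3, which makes an activator of phosphofructokinase, was below the negative controls on all 9 arrays and did not pass.

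HIF1A, the alpha subunit present in most cells, did not pass, while EPAS1, the other main alpha subunit, rose. HIF1A had log2 signals of 13.46, 13.89 and 13.72 with shLSD1 #1, 13.71, 13.66 and 13.65 with shLSD1 #2, and 13.73, 13.59 and 13.66 with control shRNA. The groups overlapped, and the changes were 0.03 (95% interval -0.25 to 0.32, limma adjusted p = 0.902) and 0.01 (-0.27 to 0.29, adjusted p = 0.974), with a sign that turned under other settings. HIF1A is controlled largely through its protein, which the arrays do not measure. EPAS1 gave 14.07, 13.90 and 13.84 with shLSD1 #1, 13.78, 13.63 and 13.67 with shLSD1 #2, and 13.20, 13.39 and 13.23 with control shRNA, without overlap. EPAS1 was 1.58-fold higher with shLSD1 #1 (log2 0.66, SE 0.11, adjusted p = 0.00417) and 1.33-fold higher with shLSD1 #2 (log2 0.41, SE 0.11, adjusted p = 0.0421). The shLSD1 #2 call was lost without any 1 of replicates 1, 2, 3, 5, 6, 7, 8 and 9 (adjusted p 0.0510 to 0.133).

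EGLN1, the prolyl hydroxylase that marks HIF alpha subunits in normal oxygen, rose as well. It had log2 signals of 10.33, 10.12 and 10.18 with shLSD1 #1, 9.89, 10.07 and 9.91 with shLSD1 #2, and 9.39, 9.61 and 9.19 with control shRNA. The groups did not overlap, and the shLSD1 #1 arrays were the highest. EGLN1 was 1.76-fold higher with shLSD1 #1 (log2 0.81, SE 0.13, limma adjusted p = 0.00325) and 1.47-fold higher with shLSD1 #2 (log2 0.56, SE 0.13, adjusted p = 0.0238). The shLSD1 #2 call was lost without replicate 1, 3, 7 or 8 (adjusted p 0.0524 to 0.0837). EGLN3, a hydroxylase that is itself a hypoxia target, was below the negative controls on all 9 arrays and did not pass. Under the spike-in block PDK1, EPAS1 and EGLN1 kept their sign with shLSD1 #2 (log2 0.56, 0.45 and 0.50) but not the call (adjusted p = 0.0521, 0.0763 and 0.0837).

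The other hypoxia targets split. ADM, which encodes the vasodilator peptide adrenomedullin, rose most among the 31 members with both hairpins. Its log2 signals were 12.06, 11.93 and 12.01 with shLSD1 #1, 11.82, 12.03 and 12.01 with shLSD1 #2, and 10.56, 10.73 and 10.83 with control shRNA. The hairpin arrays lay almost 1 log2 unit or more above the controls. ADM was 2.45-fold higher with shLSD1 #1 (log2 1.29, SE 0.12, limma adjusted p = 0.000111) and 2.37-fold higher with shLSD1 #2 (log2 1.25, SE 0.12, adjusted p = 0.000130). The shLSD1 #2 call held under the spike-in block (adjusted p = 0.00110). ANKRD37, an ankyrin repeat gene raised by low oxygen in many cells, gave 11.96, 12.04 and 11.78 with shLSD1 #1, 12.42, 12.55 and 12.55 with shLSD1 #2, and 11.32, 11.52 and 11.04 with control shRNA. The 3 groups did not overlap, with shLSD1 #2 the highest. ANKRD37 was 1.55-fold higher with shLSD1 #1 (log2 0.63, SE 0.14, adjusted p = 0.0148) and 2.32-fold higher with shLSD1 #2 (log2 1.21, SE 0.14, adjusted p = 0.000505), and the shLSD1 #1 call was lost without replicate 3 (0.0504).

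VEGFA, the growth factor that drives vessel sprouting, moved the other way. It had log2 signals of 11.42, 11.55 and 11.56 with shLSD1 #1, 11.22, 11.44 and 11.04 with shLSD1 #2, and 12.07, 11.92 and 11.98 with control shRNA, without overlap. The lowest array was shLSD1 #2 replicate 9. VEGFA was 1.4-fold lower with shLSD1 #1 (log2 -0.48, SE 0.13, limma adjusted p = 0.0284) and 1.70-fold lower with shLSD1 #2 (log2 -0.76, SE 0.13, adjusted p = 0.00357). The shLSD1 #1 call was lost without any 1 of replicates 1 to 6 (adjusted p 0.0546 to 0.0924), and the shLSD1 #2 call held under the spike-in block (0.00412).

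BNIP3 and BNIP3L encode outer membrane receptors that mark mitochondria for removal. BNIP3L averaged 14.83 ± 0.0928 with shLSD1 #1, 14.93 ± 0.0283 with shLSD1 #2 and 14.51 ± 0.160 with control shRNA (SD, n = 3 each), and it passed with shLSD1 #2 (log2 0.42, limma adjusted p = 0.0431) and not with shLSD1 #1 (0.32, adjusted p = 0.101). The call was lost without any 1 of replicates 1, 2, 4, 5, 6, 7, 8 and 9 (adjusted p 0.0519 to 0.140). BNIP3 changed by 0.23 with shLSD1 #1 and 0.20 with shLSD1 #2 and did not pass. NDRG1, a stress-response gene raised by low oxygen, was above the negative controls on 1 array, control replicate 3. It averaged 6.58 ± 0.357 with shLSD1 #1, 6.32 ± 0.267 with shLSD1 #2 and 7.18 ± 0.274 with control shRNA, and passed with shLSD1 #2 (log2 -0.86, adjusted p = 0.0291) and not with shLSD1 #1 (-0.60, adjusted p = 0.0957). With values raised to the negative controls its shLSD1 #2 change was -0.08 (adjusted p = 0.829). Its shLSD1 #2 call was lost without replicate 2, 3, 7 or 8 (adjusted p 0.0723 to 0.100), and it passed with shLSD1 #1 without replicate 5 (0.0337). CA12, a membrane carbonic anhydrase, was below the negative controls on all 9 arrays and did not pass.

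The medians of the glycolytic enzymes and of the other hypoxia genes lay on opposite sides of 0, with members of each list on both sides. The median log2 change of the 16 enzymes was -0.14 with shLSD1 #1 and -0.20 with shLSD1 #2. That of 11 of the 12 hypoxia genes was 0.23 with shLSD1 #1 and 0.20 with shLSD1 #2, beside 0.03 and 0.02 over all clusters. Each hairpin called 4 enzymes lower and 1 higher, HK2, at a signal below the negative controls. The hypoxia genes had 4 higher and 1 lower with shLSD1 #1, and 5 higher and 2 lower with shLSD1 #2. Of the enzymes 31.25% were called with each hairpin, and of the hypoxia genes 45.5% and 63.6%. Over all clusters 15.8% and 13.2% were called, and among those whose mean exceeded the negative controls 28.5% and 24.1%. The enzymes were thus called little more often than such clusters. The medians were also computed array by array, as the median deviation from each gene's control mean. For the enzymes it was -0.10, -0.16 and -0.19 on the shLSD1 #1 arrays, -0.18, -0.21 and -0.22 on the shLSD1 #2 arrays, and 0.01, -0.01 and -0.00 on the control arrays. The hypoxia genes gave 0.24, 0.23 and 0.33 on the shLSD1 #1 arrays, 0.25, 0.28 and 0.19 on the shLSD1 #2 arrays, and -0.07, 0.01 and -0.00 on the control arrays. Each of the 6 hairpin arrays had its enzyme median below and its hypoxia median above those of the 3 control arrays, which sit near 0 because the deviation is taken from their mean. Over all 31 members the median was -0.02 with shLSD1 #1 and -0.13 with shLSD1 #2. These medians describe the lists and were not tested. A longer list of 34 other hypoxia targets, described below, had medians below 0, on the side of the enzymes.

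**Figure D3:**
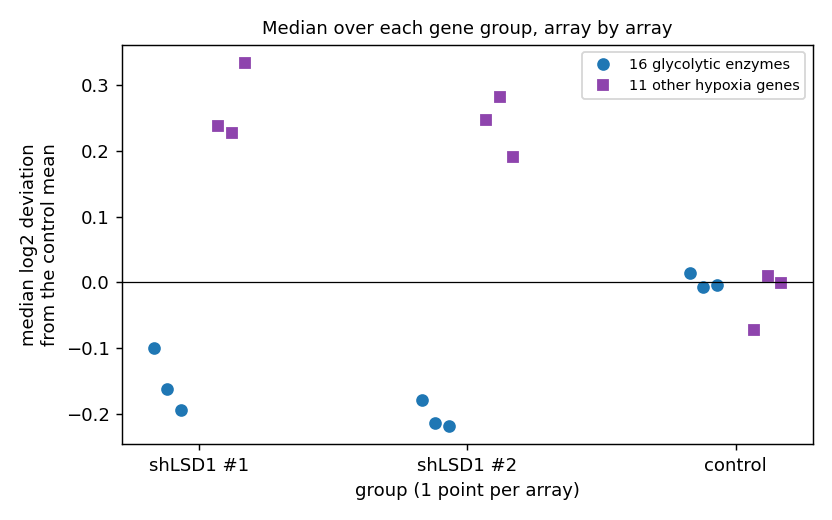
Median deviation from the control mean (log2) on each of the 9 arrays, for 16 glycolytic enzymes and 11 other hypoxia genes. On the hairpin arrays the enzyme medians lie between -0.22 and -0.10 and the hypoxia medians between 0.19 and 0.33, and the control arrays lie between -0.07 and 0.01.

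The hairpins were also set against each other. The difference shLSD1 #1 minus shLSD1 #2 passed for 0 of 31 members and 0 of 21448 clusters by limma, although 3 members and 1687 clusters had an unadjusted p under 0.05. With a trended robust prior 1 member, ANKRD37, and 42 clusters passed. ANKRD37 had the largest difference of the members (-0.58, 95% interval -0.90 to -0.26, limma adjusted p = 0.479), followed by ENO2 (0.47, 0.19 to 0.75, adjusted p = 0.479), which is below the negative controls. The interval of the difference lay within 1 log2 unit of 0 for all 31 members, which leaves room for smaller differences.

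Related genes outside the 31 were mixed. Of 34 other hypoxia targets on the array, 3 were higher and 10 lower with shLSD1 #1, and 4 were higher and 8 lower with shLSD1 #2, with median changes of -0.06 and -0.14. These are 38.2% and 35.3% called, beside 15.8% and 13.2% over all clusters. Of the 34, 21 were above the negative controls on all 9 arrays, and 28.5% and 24.1% of clusters whose mean exceeded these controls were called. DDIT4, an inhibitor of mTOR signalling, averaged 8.52 ± 0.399 with shLSD1 #1, 8.43 ± 0.434 with shLSD1 #2 and 10.84 ± 0.114 with control shRNA (SD, n = 3 each), a log2 change of -2.33 (limma adjusted p = 0.000247) and -2.42 (adjusted p = 0.000199). The transcriptional repressor BHLHE40 fell (-1.10 and -1.07) and WSB1, which has a role in protein ubiquitination, fell (-1.12 and -1.27). HMOX1, the haem-degrading enzyme, rose by 1.51 with shLSD1 #1 (adjusted p = 0.00132) and 2.03 with shLSD1 #2 (adjusted p = 0.000239), and was above the negative controls on 2 of 3 control arrays. All 4 passed with shLSD1 #2 under the spike-in block, and with shLSD1 #1 BHLHE40 (adjusted p = 0.0555), WSB1 (0.533) and HMOX1 (0.0966) did not. Among 12 further HIF subunits and regulators, shLSD1 #1 called 1 higher and 2 lower. This is 25%, beside 15.8% of all clusters and 28.5% of those whose mean exceeded the negative controls. With shLSD1 #2 limma called 0 of the 12 genes, beside 13.2% of all clusters. Of the 12, 3 had an unadjusted p under 0.05 with shLSD1 #2, and 2 passed with a trended robust prior.

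The pathways that branch from glycolysis were counted in the same way. Of 6 pentose phosphate enzymes, 4 were lower with shLSD1 #1 and 3 with shLSD1 #2, with 0 higher and median log2 changes of -0.62 and -0.53 (lower over all clusters: 7.94% and 6.63%). PGD, which makes NADPH in the oxidative arm, fell by 0.92 on the log2 scale with shLSD1 #1 (limma adjusted p = 0.00419) and by 0.73 with shLSD1 #2 (adjusted p = 0.0156). Transketolase (TKT), of the arm that rearranges sugars, fell by 0.51 and 0.57. RPIA, of the same arm, was called lower with both hairpins but was above the negative controls on 1 of 3 arrays with each hairpin, against 3 of 3 with control shRNA, so the size of its fall is not well measured. Under the spike-in block TKT alone of these 3 passed, with shLSD1 #2 (adjusted p = 0.0175). Of 23 other glycolysis and gluconeogenesis enzymes, shLSD1 #1 called 1 higher and 1 lower and shLSD1 #2 called 1 lower. These are 8.70% and 4.35%, beside 15.8% and 13.2% of all clusters, and 14 of the 23 were below the negative controls on all 9 arrays. PCK2, the mitochondrial enzyme that makes phosphoenolpyruvate, averaged 6.33 with either hairpin, below the negative controls, and 8.07 with control shRNA, so it was at least 1.86-fold lower with shLSD1 #1 and at least 1.87-fold lower with shLSD1 #2 (adjusted p = 0.000188 and 0.000195). In such bounds the hairpin arrays are set to the negative controls. Of 13 other genes of the SLC2A family and of lactate and pyruvate transport, 3 were lower and 0 higher with each hairpin: SLC2A10, SLC2A13 and SLC2A6. This is 23.1% called with each hairpin, beside 15.8% and 13.2% of all clusters. SLC2A13 was at least 3.10-fold lower with shLSD1 #1 and fell by 1.67 on the log2 scale with shLSD1 #2. SLC2A6 was at least 1.70-fold lower with shLSD1 #1 and fell by 0.63 with shLSD1 #2. SLC2A10 was above the negative controls on 1 control array, and its bound was at least 1.03-fold lower with either hairpin. Of 22 pyruvate dehydrogenase and TCA cycle genes, 1 was higher and 3 lower with shLSD1 #1, and 1 higher and 2 lower with shLSD1 #2. This is 18.2% and 13.6% called, near the shares over all clusters. Of the 22, 19 were above the negative controls on all 9 arrays. Among clusters whose mean exceeded the negative controls 28.5% and 24.1% were called, so the list was called less often than these. SUCLG2, a subunit of succinyl-CoA ligase, was at least 2.10-fold lower with shLSD1 #1 and at least 2.11-fold lower with shLSD1 #2. SDHD, a membrane anchor of succinate dehydrogenase, fell by 0.52 and 0.40 on the log2 scale. Under the spike-in block the SDHD call was lost with both hairpins (adjusted p = 0.283 and 0.0850), and with shLSD1 #1 so were those of PCK2 (0.0579), SLC2A6 (0.116) and SUCLG2 (0.111).

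**Figure D4:**
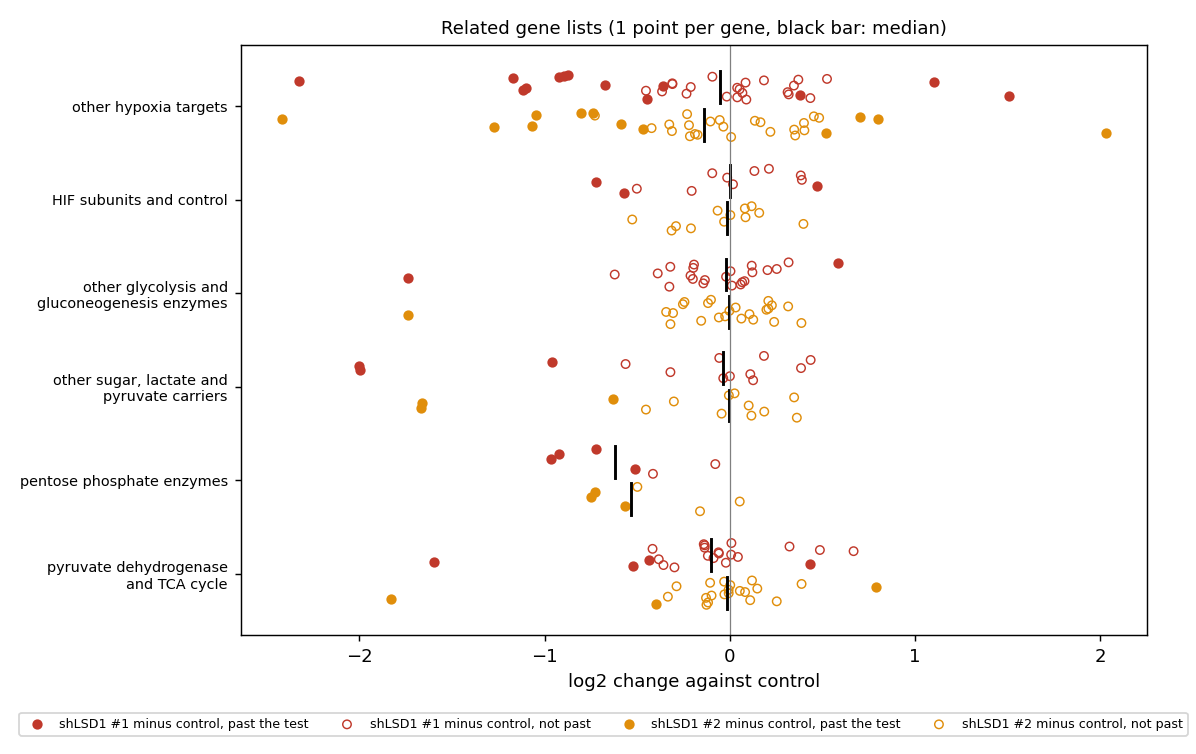
Fitted log2 change against control shRNA of genes in 6 related lists, 1 point per gene, shLSD1 #1 in red above shLSD1 #2 in orange; filled points passed the test and black bars are medians. The pentose phosphate medians are -0.62 and -0.53, and those of the other 5 lists lie between -0.14 and 0.00.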

How the data were processed

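Total RNA was labelled and hybridized to 9 Clariom S arrays, 3 per group. The deposited values are log2 signals that the authors summarised by RMA in Affymetrix Expression Console 1.4, per the submitters' processing notes. The log base is taken to be 2, as RMA gives by default. Its library files and options are not given in the sources used. Of 24351 probe sets, 2903 controls were set aside and 21448 clusters were tested without a filter. Symbols came from the platform annotation: 17709 clusters had 1 symbol, 3739 had none, and 0 member symbols differed in RefSeq. Samples were grouped by their labels.

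limma 3.58.1 in R 4.3.3 (lmFit and eBayes, prior without trend) fitted the 3 groups together. Its p-values are two-sided with Benjamini-Hochberg adjustment across the 21448 clusters, and 0.05 was the threshold. The number of arrays limits the precision. On simulated data the fit called 62.7% (shLSD1 #1) and 65.7% (shLSD1 #2) of 67 clusters changed by 1 on the log2 scale, and 5.97% and 4.48% of 67 changed by 0.5. The simulation changed far fewer clusters than were called in the data (3385 and 2827), which makes its adjusted threshold stricter. These shares are therefore not the sensitivity of the fit on the data themselves. The members and lists were chosen with earlier results of these data known. Values were given on all 9 arrays for members past the test with both hairpins and for SLC2A1, HK2, GAPDH, LDHA, PDK1, HIF1A, EPAS1, VEGFA and ADM, as means for members past with 1 hairpin, and in related lists for up to 4 genes past with both. Lower bounds set a group below the negative controls to their 95th percentile. Alternatives were a second quantile normalization, median subtraction, cyclic loess, a fit without the third of clusters of lowest mean, values raised to 7.25 (the mean negative control percentile), a trended robust prior, array weights, only the groups compared, the spike-in class as a block, only arrays of high spike-in signal, and omission of each array. Plots used matplotlib 3.10.9.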

Additional observations from a re-analysis of the deposited data

How the results depend on the processing

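ENO2, PFKFB3, EGLN3 and CA12, below the negative controls and uncalled, were followed under the block alone. Of 621 other values of members under an alternative, 538 kept their direction and their side of the threshold, 49 lost the call, 16 gained it and 18 changed sign. For the omission of single arrays, the 621 hold only the fits with the lowest and the highest change of each gene and hairpin. Calls lost on omission of other arrays are not in the 49, so the count understates how often calls were lost. The limits are 3 arrays a group, 5 members below the negative controls throughout, 5 members above 16, and a spike-in split that coincides with shLSD1 #1. Each member has 1 cluster, so a mean over a gene's clusters gave no separate value. No paired analysis was possible because the groups share no replicate number. The cause of the changes below was not tested.

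When the spike-in class was a block, the clusters called with shLSD1 #1 were 399, against 3385. For shLSD1 #1 this rests on 1 array, shLSD1 #2 replicate 8, and is no separate check. The members called under it were 2 with shLSD1 #1, against 13, and 8 with shLSD1 #2, against 15. On the high spike-in arrays alone, shLSD1 #2 called 1450 clusters, against 2827, and 6 members, with HK2 (adjusted p = 0.0621) and PGK1 (0.0503) lost besides those lost with the block. Leaving out 1 array at a time left between 8 and 13 members called with shLSD1 #2. Between the hairpins, the trended robust prior called 42 clusters and 1 member, against 0 and 0.

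The median of the glycolytic enzymes with shLSD1 #1 was -0.083 after a second quantile normalization, against -0.14. With shLSD1 #2 it was -0.160 with values raised to the negative controls, -0.262 with the block and -0.262 on the high spike-in arrays, against -0.20, and it ran from -0.274 to -0.163 with 1 array left out. The median of the other hypoxia genes ran from 0.147 to 0.280 with shLSD1 #1 and from 0.158 to 0.264 with shLSD1 #2 with 1 array left out, and was 0.307 with shLSD1 #2 without the third of clusters of lowest mean. The enzyme median minus the hypoxia median was -0.37 with shLSD1 #1, running from -0.433 to -0.265 with 1 array left out. With shLSD1 #2 it was -0.40, running from -0.478 to -0.368, and -0.511 without the third of clusters of lowest mean. These medians kept their sign under every alternative run.

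Among the 27 members followed, the sign changes were in 5 that did not pass. Of the others, ENO2 with shLSD1 #1 (-0.03 against 0.22) and EGLN3 with shLSD1 #2 (0.06 against -0.03) turned under the block. With the block and shLSD1 #1, PFKL came to 0.158, ALDOC to -0.120 and PGAM1 to -0.0135. PFKM came to 0.00436 (shLSD1 #1) and 0.00876 (shLSD1 #2) after a second quantile normalization, and to 0.0255 and 0.00312 with array weights. HIF1A came to -0.00644 with array weights (shLSD1 #1) and -0.00735 with cyclic loess (shLSD1 #2). With 1 array left out, the ranges with shLSD1 #1 were -0.133 to 0.0766 for PFKL, -0.146 to 0.0921 for PFKM, -0.0710 to 0.263 for ALDOC, -0.0497 to 0.114 for PGAM1 and -0.0677 to 0.144 for HIF1A. With shLSD1 #2 they were -0.0682 to 0.0621 for PFKM, -0.255 to 0.00675 for ALDOC, -0.00972 to 0.0857 for PGAM1 and -0.0235 to 0.0444 for HIF1A.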
